A study of Mus musculus with 3 samples.

Results

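The contractile genes of myoepithelial cells were followed in embryonic mouse mammary cells: Acta2, Myh11, Mylk, Myl9, Cnn1, Actg2, Lmod1, Oxtr, Tpm1 and Cald1. The 10 genes were listed by symbol, and every probe set annotated with exactly 1 of these symbols was taken, which gave 21 of the 28898 single-symbol probe sets and 10 of 17097 genes. RNA came from 1 group of 3 samples, each hybridised to its own Affymetrix array. The cells were mammary cells with high CD49f (integrin alpha 6, a basal epithelial surface protein) and high Lgr5 reporter signal, isolated by flow cytometry from female Lgr5-IRES-GFP embryos at E14, embryonic day 14. All samples therefore carried the reporter allele, in which green fluorescent protein is expressed from the Lgr5 locus, and there was no wild-type, adult or Lgr5-negative group. Each sample pooled the female embryos of 1 litter, and epidermis was digested along with the mammary gland. Either 813 or 2000 cells were sorted per sample, and the labels do not say which number belongs to which array.

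Myoepithelial cells form the basal layer of the adult mammary gland and squeeze milk out of the alveoli. Oxytocin binds its receptor, calcium rises, calmodulin activates myosin light chain kinase, and phosphorylated smooth muscle myosin pulls on actin filaments. Tropomyosin, caldesmon and calponin sit along these filaments. Many of the genes are targets of serum response factor (SRF) and its myocardin family cofactors. The programme is known as a feature of mature basal cells, and most of its genes are also used by smooth muscle and, in part, by fibroblasts.

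Some of the 10 genes were detected. Of the 10 genes, 6 (Acta2, Myh11, Mylk, Myl9, Tpm1 and Cald1) were above background, against 52.5% of all genes, and 4 (Cnn1, Actg2, Lmod1 and Oxtr) were not. A share of 6 in 10 lay near that of all genes. Of 50 genes restricted to unrelated organs, 28.0% were above background as well. Background was the 95th percentile of 78 olfactory and vomeronasal receptor genes on each array, which came to 6.29 on replicate 1, 6.23 on replicate 2 and 6.22 on replicate 3 (log2). Each gene was represented by its probe set with the highest mean, and limma tested the mean height above this threshold (one-sided, Benjamini-Hochberg over all 17097 genes, called at an adjusted p under 0.05). The SE of a height, given below, is the moderated SE of limma, which also draws on the variance of the other genes. The median height was 1.63 over the 10 genes and 0.63 over all genes, on the log2 scale. With 3 arrays their number limited the precision, and the level of one gene was not ranked against that of another, because probe sets differ in how strongly they bind.

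Smooth muscle actin and smooth muscle myosin gave a signal on each array, each from 1 of 2 probe sets. Acta2 encodes smooth muscle alpha actin, the filament that the motor pulls on. Its probe set 1416454_PM_s_at read 10.08 on replicate 1, 8.61 on replicate 2 and 9.98 on replicate 3 (log2 values, given in this order from here on). Replicate 2 was the low one, and all 3 values were well above the threshold (height 3.31 ± 0.32, SE, n = 3; limma adjusted p = 0.00035). The _s_ in its name marks a probe set whose probes can match transcripts of more than 1 gene. The other probe set of Acta2, 1456658_PM_at, had 6.46, 6.37 and 5.81, at the threshold of the probe set fit (limma adjusted p = 0.93). Without probe sets marked as cross-hybridising, Acta2 therefore lost its call (height -0.03). The related actin genes Actg2 (5.03 ± 0.28, SD, n = 3) and Acta1 (5.25 ± 0.07), of enteric smooth muscle and skeletal muscle, were not above background. The cardiac actin gene Actc1 had 7.46, 8.14 and 5.07 and was not called either (limma adjusted p = 0.296). Its low array was replicate 3, whereas that of Acta2 was replicate 2. The cytoplasmic actin genes Actb (13.35 ± 0.09) and Actg1 (12.16 ± 0.02, SD, n = 3) were above background. Whether the Acta2 signal holds a part from other transcripts was not tested.

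Myh11, the heavy chain of smooth muscle myosin, had 6.95, 6.87 and 7.89 with probe set 1448962_PM_at. These values were close to the threshold on replicates 1 and 2 and higher on replicate 3 (height 0.99 ± 0.25, SE, n = 3; limma adjusted p = 0.0128). Its other probe set, 1418122_PM_at, was below the threshold on each array, at 5.74, 5.63 and 5.40. The call for Myh11 was lost when 50 genes restricted to unrelated organs, such as testis or liver, set the threshold (height -0.18), with the brightest antigenomic control as threshold (-0.15) and with the mean of both probe sets (0.28, limma adjusted p = 0.0736). Actg2, the gamma actin of enteric smooth muscle, had 5.06, 4.73 and 5.29 and lay below the threshold on all 3 arrays.

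The light chain and its kinase were above background. Myl9 encodes the regulatory light chain of smooth muscle myosin, whose phosphorylation starts contraction. It had 11.09, 10.46 and 10.10, with replicate 1 the highest. Its height was 4.30 ± 0.20 (SE, n = 3; limma adjusted p = 3.38e-05), and it was called in all 13 alternative settings. Mylk encodes myosin light chain kinase, which phosphorylates that light chain. Its probe set 1425506_PM_at had 8.18, 8.01 and 9.37, high on replicate 3 (height 2.27 ± 0.31, SE, n = 3; limma adjusted p = 0.00126). Of its other probe sets, 1425504_PM_at had 7.0, 6.96 and 6.77 and was called (limma adjusted p = 0.00623), and 1425505_PM_at had 6.44, 6.25 and 6.67 and was not (0.187). The call of 1425504_PM_at held in 7 of 12 alternatives. It was lost with the 99th percentile, organ-restricted and antigenomic thresholds and without replicate 1 or replicate 2. Replicate 3 was the highest array for 1425506_PM_at and 1425505_PM_at and the lowest for 1425504_PM_at.

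The tropomyosin and caldesmon genes were above background with each of their probe sets. Tpm1 encodes an alpha tropomyosin that is spliced into muscle and non-muscle forms, and all 3 of its probe sets were above background. The probe set 1423721_PM_at had 10.69, 10.52 and 10.17 (height 4.21 ± 0.14, SE, n = 3; limma adjusted p = 1.40e-05). Its other probe sets did not share a pattern over the arrays: 1423049_PM_a_at had 9.76, 9.49 and 8.66, lowest on replicate 3, and 1456623_PM_at had 7.80, 8.0 and 8.28, highest there. The annotation does not say which splice form each probe set reads.

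Cald1, caldesmon, binds actin, tropomyosin and myosin and exists in smooth muscle and non-muscle forms. All 5 of its probe sets were above background. The probe set 1424769_PM_s_at had 9.70, 9.69 and 9.40 (height 3.34 ± 0.13, SE, n = 3; limma adjusted p = 2.18e-05), the smallest range over the arrays (0.30) among the 10 genes. The probe set 1433147_PM_at stood apart, with 7.53, 9.14 and 7.35, and was 1.70 higher on replicate 2 than on the mean of the other arrays. No other Cald1 probe set differed by over 1 on an array. The 2 probe sets 1433146_PM_at and 1433147_PM_at lost their call with the organ-restricted or the antigenomic threshold.

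Calponin and leiomodin, proteins of differentiated smooth muscle, were not above background. Cnn1, which encodes the calponin of smooth muscle, had 5.89, 5.79 and 5.09, below the threshold on each array. Lmod1, which encodes the leiomodin that nucleates actin filaments in smooth muscle, had 6.18, 5.83 and 5.70 and was also below it on each array. Actg2, Cnn1 and Lmod1 were called in none of the 12 alternatives that gave them a value, though each was measured by a single probe set.

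Oxtr, the oxytocin receptor through which milk ejection is triggered, lay at the threshold. Its probe set 1426000_PM_at had 6.47, 6.33 and 6.15, of which replicates 1 and 2 were above and replicate 3 below the threshold (height 0.07 ± 0.12, SE, n = 3; limma adjusted p = 0.517). The other probe set, 1440888_PM_at, had 5.05, 5.0 and 5.55 and was below it on all arrays. Oxtr passed the test in 1 alternative, with the 90th percentile of the receptor genes as threshold (height 0.49, limma adjusted p = 0.0102).

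Counted by probe set, 13 of the 21 were above background, against 47.2% of all single-symbol probe sets, in a fit over all 28898 with a threshold set by 83 receptor probe sets. Of the 21, 14 lay above the threshold on all 3 arrays and 5 on none. Probe sets of 1 gene are not replicates, and Cald1 and Tpm1 alone supplied 8 of the 13. Acta2, Myh11 and Mylk had probe sets on both sides of the call.

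**Figure D1:**
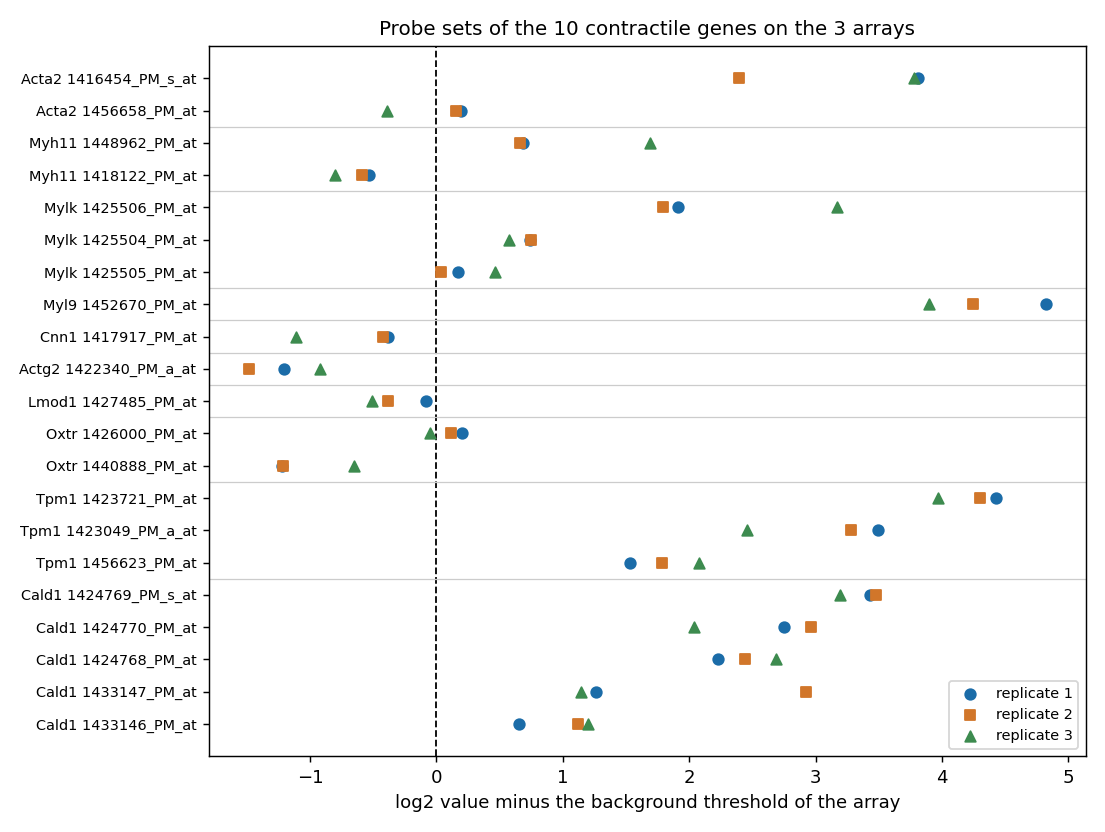
Each row is 1 probe set of a contractile gene and each point 1 array, plotted as the log2 value minus the threshold of that array (dashed line at 0). Myl9, Tpm1 and Cald1 lie above the line throughout, Cnn1, Actg2 and Lmod1 below it, and the probe sets of Acta2 and Myh11 fall on both sides.

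Next to the members, a list of smooth muscle contraction genes was called at about the share of all genes. Of its 17 measured genes, 9 were above background (52.9%, close to the 52.5% of all genes), with a median height of 0.58. Not all genes of the list are restricted to smooth muscle. Among the called genes, Npnt (9.47 ± 0.43), Pdlim7 (9.10 ± 0.26), Jph2 (6.90 ± 0.54) and Ldb3 (6.83 ± 0.34, SD, n = 3) are not. Tpm2, the beta tropomyosin gene, had 9.38, 8.77 and 7.97, highest on replicate 1 and lowest on replicate 3 (limma adjusted p = 0.000633). Synm, an intermediate filament gene, had 7.36, 7.27 and 8.32, and Ppp1r12b, a targeting subunit of myosin phosphatase, had 8.33, 8.08 and 7.64. Csrp1, a LIM protein gene of smooth muscle, stood at 10.59 ± 0.26 and the integrin gene Itga8 at 6.92 ± 0.24 (SD, n = 3). Both were above background. Des (5.96 ± 0.11), the desmin gene, was not, and neither were Synpo2 (6.0 ± 0.65), Kcnmb1 (4.82 ± 0.48), a potassium channel subunit gene of smooth muscle, and Ppp1r14a (5.43 ± 0.37), which encodes an inhibitor of myosin phosphatase. With the organ-restricted threshold, 5 of the 17 were called, beside 5107 of all 17097 genes.

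SRF and its widely expressed cofactors were above background and the smooth muscle cofactor was not. Srf stood at 10.94 ± 0.15 (SD, n = 3; limma adjusted p = 8.81e-06), and the cofactor genes Mrtfa and Mrtfb, which respond to the actin state of the cell, at 9.07 ± 0.36 and 9.95 ± 0.05. Myocd, which encodes myocardin, had 4.68, 4.79 and 5.21, below the threshold on each array. Mef2a (9.30 ± 0.40) and the LIM gene Fhl1 (7.28 ± 0.72) were above background, and Mef2c (6.19 ± 0.22), Fhl2 (6.67 ± 0.28) and Tead4 (5.26 ± 0.21) were not. Tead1, the other measured TEAD gene of the list, was above background (9.335 ± 0.069; limma adjusted p = 2.51e-05). In all, 7 of 11 measured genes of this list were called (63.6%, against 52.5% of all genes), with a median height of 2.34.

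The start sites of 4 members are printed because SRF binds the CArG box (CC, 6 bases of A or T, GG), and TEAD factors bind MCAT (CATTCC), in smooth muscle promoters. The sequences are those of RefSeq in the build GRCm38.p6, 250 bases before each start, read 5′ to 3′ on the strand of the gene. Capitals mark a CArG box, a CArG box with 1 other base among its central 6, or MCAT. Acta2 is at chr19:34255374-34255623 (- strand), Myl9 at chr2:156775214-156775463 (+ strand), Tpm1 at chr9:67049214-67049463 (- strand) and Cnn1, which was not above background, at chr9:22099003-22099252 (+ strand).
Acta2: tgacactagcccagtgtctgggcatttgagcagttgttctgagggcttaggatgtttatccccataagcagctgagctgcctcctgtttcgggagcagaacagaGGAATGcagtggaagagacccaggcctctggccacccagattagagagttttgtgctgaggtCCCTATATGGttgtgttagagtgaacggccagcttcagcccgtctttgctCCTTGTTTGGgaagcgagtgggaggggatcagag
Myl9: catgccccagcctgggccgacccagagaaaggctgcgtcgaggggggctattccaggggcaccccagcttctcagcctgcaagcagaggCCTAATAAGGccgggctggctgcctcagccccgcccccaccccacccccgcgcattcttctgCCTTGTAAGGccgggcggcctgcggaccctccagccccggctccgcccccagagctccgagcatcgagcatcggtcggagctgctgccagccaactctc
Tpm1: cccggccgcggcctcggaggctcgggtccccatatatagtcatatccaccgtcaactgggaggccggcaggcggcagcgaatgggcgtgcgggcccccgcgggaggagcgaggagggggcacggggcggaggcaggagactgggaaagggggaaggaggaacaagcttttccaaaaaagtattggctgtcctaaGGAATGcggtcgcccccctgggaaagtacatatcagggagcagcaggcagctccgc
Cnn1: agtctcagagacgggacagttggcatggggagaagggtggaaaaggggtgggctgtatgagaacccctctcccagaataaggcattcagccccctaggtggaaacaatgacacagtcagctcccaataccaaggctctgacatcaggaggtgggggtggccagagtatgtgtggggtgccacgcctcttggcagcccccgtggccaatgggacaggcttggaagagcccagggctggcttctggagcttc

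Of the 10 genes, 8 were in the table of promoters, with 9 windows, and Myh11 and Actg2 were not used here. The strict CArG box was in 1 window, that of Myl9 (CCTAATAAGG, 161 to 152 bases before the start), against 1.47% of all 32851 windows of the same length. The looser form, added after the sequences were seen, was in the windows of Acta2 (CCCTATATGG and CCTTGTTTGG) and Myl9 (CCTTGTAAGG), against 7.24% of all windows. MCAT, searched on both strands as CATTCC, was in 5 of the 9 windows (Acta2, Cald1, Lmod1, Mylk and Tpm1), against 12.6% of all. The TATAAA motif was in 1 window, that of Cald1, against 12.4%. The matches do not overlap one another. The window of Cnn1 held none of these letters. The MCAT windows included that of Lmod1, which was not above background, and left out that of Myl9, which was. A match describes the letters before a start and does not show binding.

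Non-muscle relatives of the contractile proteins were above background almost throughout, with 16 of 18 genes (88.9%, against 52.5% of all genes) and a median height of 4.21. Actb and Actg1, the cytoplasmic actin genes, stood at 13.35 ± 0.09 and 12.16 ± 0.02 (SD, n = 3). The non-muscle myosin genes Myh9 and Myh10 stood at 9.53 ± 0.13 and 10.57 ± 0.41, and the light chain gene Myl6 at 12.35 ± 0.25. The calponin relatives Cnn2 and Cnn3 were among the 16, unlike Cnn1. The 2 others were Lmod2 (4.81 ± 0.07) and Lmod3 (6.06 ± 0.13), relatives of Lmod1 found in striated muscle. Of 16 actin and myosin genes of striated muscle, 4 were above background (Myh3, Mylk2, Myl3 and Myl4), with a median height of -0.63. The skeletal myosin genes Myh1 (5.29 ± 0.21) and Myh2 (5.37 ± 0.14) were not. None of the 16 was called with the organ-restricted threshold or with the brightest antigenomic control as threshold. Over all 17097 genes, 5107 and 5399 were called with these thresholds. Myl7 (5.04 ± 0.30), 1 of the 16, was also among the 50 genes that set the organ-restricted threshold.

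Of 16 measured genes around the oxytocin receptor, 9 were above background (56.2%), close to the 52.5% of all genes. With the organ-restricted threshold or the brightest antigenomic control, 5 of the 16 were called, beside 5107 and 5399 of all 17097 genes. The genes of the G proteins that the receptor uses, Gnaq (10.72 ± 0.08) and Gna11 (10.14 ± 0.09, SD, n = 3), were both called. The phospholipase genes Plcb3 (7.32, 7.32 and 8.48) and Plcb4 (7.02, 7.20 and 8.86) were called, with replicate 3 the high array in both. The vasopressin receptor genes Avpr1a (5.54 ± 0.29), Avpr1b (5.86 ± 0.03) and Avpr2 (5.60 ± 0.19) were not above background. The hormone gene Oxt itself had 9.13, 9.05 and 8.84 from 1 probe set (height 2.76; limma adjusted p = 3.74e-05), and the neighbouring hormone gene Avp (6.44 ± 0.47) was not called.

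Markers of more than 1 cell type were present in the same pools. Over all genes, 52.5% were above background. All 11 measured basal epithelial markers were above background, among them Krt5 (12.15 ± 0.16), Krt14 (11.38 ± 0.25), Trp63 (10.53 ± 0.39), Krt15 (7.29 ± 0.31) and Itga6 (10.37 ± 0.40, SD, n = 3). Of 14 dermal mesenchyme markers, 12 were above background as well, among them Dcn (11.43 ± 0.07), Lum (10.10 ± 0.19), Twist2 (10.80 ± 0.27), Col1a1 (12.99 ± 0.15) and Col1a2 (7.99 ± 0.09). Pdgfra (4.89 ± 0.55) and Dpp4 (5.37 ± 0.24) were not. The log2 of the summed signal of these 14 genes was 15.05, 14.90 and 14.77 on replicates 1, 2 and 3, and that of the 11 basal genes was 13.60, 13.91 and 14.08. The part of mesenchymal RNA in the values of Acta2, Myl9, Tpm1 and Cald1, which fibroblasts can also express, was not tested. In such pooled RNA, fewer cells of a type and less RNA per cell cannot be told apart.

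Vascular smooth muscle and pericyte markers were above background in 6 of 12 cases, with log2 summed signals of 11.13, 11.14 and 11.31. The called genes included Pdgfrb (8.84 ± 0.20), Mcam (7.67 ± 0.31), Notch3 (8.40, 8.55 and 10.04), Anpep (8.66 ± 0.37) and Ndufa4l2 (7.66 ± 0.59, SD, n = 3), several of which other mesenchymal or epithelial cells also use. The pericyte genes Rgs5 (6.42 ± 0.46), Kcnj8 (5.42 ± 0.12), Rgs4 (5.33 ± 0.11) and Higd1b (5.34 ± 0.09) were not above background. Skeletal muscle markers reached 4 of 14, endothelial markers 2 of 10 and leukocyte markers 2 of 10. Of the 50 genes restricted to unrelated organs, 14 (28.0%) passed the same threshold, so these shares, and the 4 of 16 striated muscle genes, lay close to or below that of a negative list. Myl7 was on both the negative list and the striated muscle list. The called skeletal muscle genes were Myod1 (7.07 ± 0.25), Tnnc2 (6.82 ± 0.18), Cdh15 (7.68 ± 0.27) and Myh3, whereas Myog (5.97 ± 0.15), Myf5 (3.95 ± 0.13), Myf6 (5.32 ± 0.62) and Ckm (6.07 ± 0.21, SD, n = 3) were not called. Of the endothelial genes, Pecam1 (8.12, 8.30 and 6.47) and Egfl7 (7.29 ± 0.40) were called, and Cdh5 (5.81 ± 0.27), Kdr (6.35 ± 0.35), Tek (5.82 ± 0.49) and Tie1 (5.01 ± 0.17) were not. Of the leukocyte genes, Cd68 (8.83 ± 0.26) and Fcer1g (7.29 ± 0.46) were called, and Ptprc (4.03 ± 0.20), Csf1r (6.47 ± 0.14), Tyrobp (5.81 ± 0.70) and Itgam (5.70 ± 1.16) were not. Simple and luminal epithelial markers were called in 9 of 11 cases, including Krt8 (10.07 ± 0.33), Krt18 (8.89 ± 0.51), Krt19 (7.43 ± 0.20), Epcam (10.31 ± 0.40) and Cldn3 (7.13 ± 0.27). Foxa1 (4.74 ± 0.39) and Elf5 (5.93 ± 0.49), transcription factor genes of luminal cells, were not. Gata3 (8.31 ± 0.82), Esr1 (9.62 ± 0.25) and Pgr (7.23 ± 0.11), transcription factor genes on the same list, were called.

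**Figure D2:**
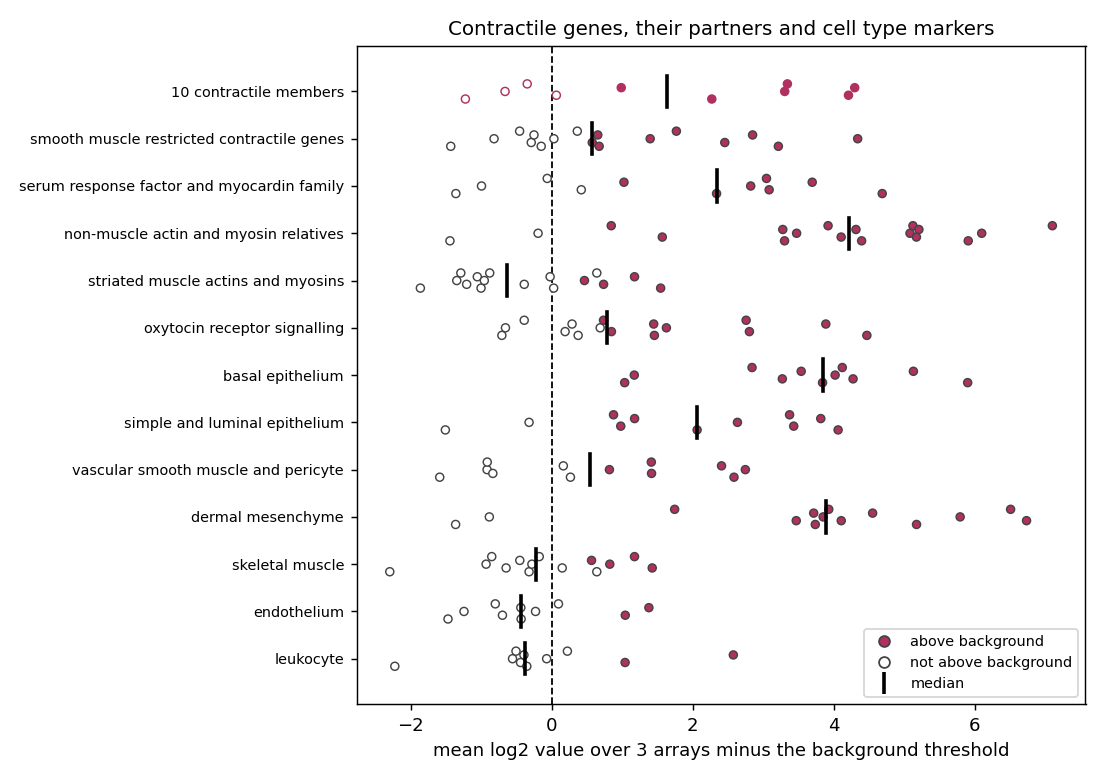
Each point is 1 gene, at its mean log2 value over 3 arrays minus the threshold (dashed line at 0). Filled points were above background by limma, open points were not, and vertical bars are list medians. The 10 contractile genes spread over both sides of the line (median 1.63), the non-muscle relatives lie mostly above it (median 4.21) and the striated muscle genes mostly below it (median -0.63).

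Among the 6 contractile genes above background, the representative probe sets of Acta2, Mylk, Myh11 and Myl9 varied between the litters. Those of Tpm1 and Cald1 varied less. The median SD of the 6 representative probe sets over the arrays was 0.53, beside 0.26 for all 8972 genes above background. This split did not hold over all 21 probe sets. The largest SD, 0.99, was that of 1433147_PM_at of Cald1. The other Tpm1 probe sets had 0.57 and 0.24, and the other ones of Acta2 and Myh11 0.35 and 0.17. Each litter was measured once, so differences between arrays are described and not tested, and litter, number of sorted cells and batch cannot be told apart. A difference of over 1 on the log2 scale between an array and the mean of the others was counted. On replicate 2, Acta2 stood at -1.42 from the mean of the other arrays, and 0.513% of all genes above background were lower by over 1 there. On replicate 3, Mylk was higher by 1.28, on an array where 9.2% of these genes were higher by over 1. No member was higher by over 1 on replicate 1 or lower by over 1 on replicate 3, where 0.167% and 1.29% of these genes were. No other representative probe set of the 6 passed the limit, and Myh11 came to 0.98 on replicate 3.

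Values of replicate 3 were shifted as a whole. The median difference of all genes above background was -0.11, -0.14 and 0.26 on replicates 1, 2 and 3. After each array was centred on its median, Acta2 on replicate 2 stood at -1.27 and Mylk on replicate 3 at 1.00, just under the limit. After quantile normalization they stood at -1.20 and 0.86, and Myl9 on replicate 3 at -1.08.

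The members did not share 1 pattern over the litters. Myl9 (0.81, -0.13 and -0.68), Tpm1 (0.35, 0.08 and -0.43) and Cald1 (0.16, 0.14 and -0.30) were highest on replicate 1 and lowest on replicate 3, given as differences of each array from the mean of the others. The medians of called genes went in the same order in several lists. These were dermal mesenchyme (0.18, -0.07 and -0.22), smooth muscle contraction (0.23, 0.10 and -0.43) and striated muscle (0.27, 0.24 and -0.54). Vascular smooth muscle and pericyte (0.20, 0.14 and -0.24), endothelium (0.34, 0.21 and -0.56) and leukocyte (0.23, -0.01 and -0.23) were the others. The order was thus seen in the medians of these 6 lists and not in the other lists. The skeletal muscle median, for example, was highest on replicate 2 (0.25, 0.28 and -0.43). Within the 6 lists, not every called gene followed the order. Pdgfrb (0.22, 0.12 and -0.34) and Myl3 (0.37, 0.31 and -0.68) did, and Mcam (-0.37, 0.52 and -0.15) and Myh3 (0.30, 0.68 and -0.99) did not. The endothelial and leukocyte medians were each over 2 called genes that moved in opposite ways, and none of these genes followed the order. Pecam1 had 0.73, 1.01 and -1.74 and Egfl7 -0.05, -0.58 and 0.63. Cd68 had 0.10, -0.44 and 0.33 and Fcer1g 0.36, 0.42 and -0.79. With median centring the order was kept in each of these 6 lists, and the dermal markers stood at 0.32, 0.08 and -0.50. With quantile normalization the striated muscle median was highest on replicate 2 instead (0.407, 0.414 and -0.85). Mylk (-0.51, -0.77 and 1.28) and Myh11 (-0.43, -0.55 and 0.98) were highest on replicate 3. The median of the called basal epithelial markers was also highest there (-0.43, 0.04 and 0.45), but with median centring it was highest on replicate 2 (-0.30, 0.19 and 0.17). Acta2 (0.78, -1.42 and 0.63) followed neither order. These orders of Myl9, Tpm1, Cald1, Mylk, Myh11 and Acta2 from the highest to the lowest array were the same with median centring and with quantile normalization. They hold for the probe set with the highest mean of each gene and seldom for its others. Of the other Tpm1 probe sets, 1423049_PM_a_at kept the order and 1456623_PM_at did not, and none of the other 4 of Cald1 kept it. The other probe sets of Acta2 and Myh11 and 1425504_PM_at of Mylk were highest on replicate 1 and lowest on replicate 3, and only 1425505_PM_at of Mylk kept the order of its gene. The part of any cell type in these differences was not tested.

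**Figure D3:**
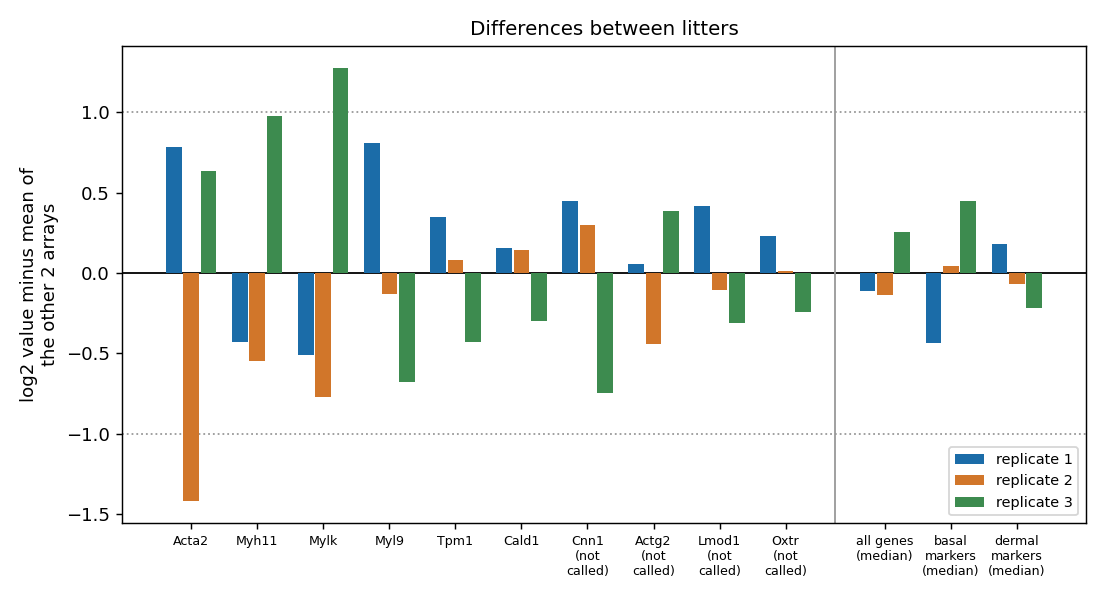
Bars give the log2 value of each array minus the mean of the other 2 arrays, for the 6 contractile genes above background, the 4 that were not, the median of all genes above background, and the medians of the called basal and dermal markers. Dotted lines mark a difference of 1. Acta2 passes the line on replicate 2 (-1.42) and Mylk on replicate 3 (1.28).

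The genes whose values over the 3 arrays were most like those of Acta2 were Hoxc8, Adh1, Zfhx4, Megf6 and Dmrt2. Likeness was the Euclidean distance between values centred on their mean, over 3 arrays and among 8971 genes above background. Hoxc8, a homeobox gene, was the closest, with 9.59, 8.52 and 9.64 (distance 0.29). Adh1, an alcohol dehydrogenase gene, had 11.44, 10.54 and 11.43 (distance 0.44). Zfhx4 had 8.31, 7.38 and 8.80, Megf6 had 7.59, 6.80 and 7.89, and Dmrt2 had 7.19, 6.30 and 7.02. All 5 were lowest on replicate 2. The other contractile genes were far down this order. Myh11 came at rank 2071 and Mylk at 2783, and Myl9, Tpm1 and Cald1 at 6185, 6685 and 6944. With 3 arrays such a likeness is a description of these samples.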

How the data were processed

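RNA of 3 samples was measured on Affymetrix arrays with perfect match probe sets. The authors deposited a log2 value for each probe set. RMA and affy are listed, with no version or setting, in the submitters' processing notes, so joint normalization of the arrays remains unknown. Per the labels' protocols, cDNA was amplified for 25 cycles. RMA compresses differences of weak probe sets. The array medians were 6.25, 6.25 and 6.52.

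Of 45141 probe sets, 104 were controls, and 28898 with 1 gene symbol in the platform annotation were used (551 had several symbols, 15588 none). Heights above the receptor threshold were tested with limma 3.58.1 under R 4.3.3, with an intercept model and a variance trend. The test called 8972 of 17097 genes, and 9258 had an unadjusted p under 0.05. The p-values leave out the uncertainty of the threshold. On simulated data for 17097 genes, 78% at a height of 0.5 and 98% at 1 were recovered, and 3.5% at the threshold were called. The simulation used independent normal noise with the SDs of all genes, a known threshold and no shift of an array. Recovery at the larger SD of the called members (median 0.53, beside 0.26 for all called genes) was not simulated. Python 3.11.15 made the summaries.

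Members and lists were chosen with earlier results of these data known. The text names all members, the first 5 called and first 4 other genes of each reported list of partners or markers, and the 5 genes most like Acta2. Cnn2, Cnn3, Tead1, Gata3, Esr1, Pgr, Myl7, Olfr558, Npnt, Pdlim7, Jph2 and Ldb3 were named after their values were seen. Protein sequences were not used here, so a planned comparison of them was not run, and 1 list of partner genes is not reported here. Alternatives changed the threshold, scaling, probe set rule, filter, variance model and arrays used.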

Additional observations from a re-analysis of the deposited data

How the results depend on the processing

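The count of members above background stayed between 5 and 7 of 10 in the 13 alternatives, and that of member probe sets between 9 and 15 of 21 in the 12 that apply to probe sets. Over all genes the count moved from 8972 to 5107 with the organ-restricted threshold and to 5399 with the brightest antigenomic control, and over all probe sets from 13650 to 7755 and 7610. Called cell type markers moved from 46 of 82 to 30 with the organ-restricted threshold. Acta2 had a height of -0.029 without cross-hybridising probe sets, and Myh11 -0.18 and -0.15 with the organ-restricted and antigenomic thresholds. Differences of over 1 between an array and the others numbered 2 among the members, against 1 with median centring, 0 with the mean of probe sets and 10 with a minimum of 0.5. Leaving out 1 array kept 6 members called each time, and between 12 and 13 probe sets. Those fits had 1 array fewer to estimate the variance of each gene, so their p-values are not given and their calls carry less weight. Median centring leaves heights unchanged by construction. No paired analysis was possible because there was 1 group. Array number and closeness to background limit what can be said of Oxtr, Lmod1 and Myh11.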
